A study of Mus musculus with 2 samples.

Results

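The genes for lymphotoxin beta (Ltb), tumour necrosis factor (Tnf) and lymphotoxin alpha (Lta) lie side by side on mouse chromosome 17. Reads of a STAT5 and a STAT3 chromatin immunoprecipitation library from T helper 17 (Th17) cells were described over 60 kb around them, chr17:35310000-35370000 on mm9. The region was chosen by the position of the genes and by the reads of these same libraries at a tall STAT5 site, chr17:35342000-35342649, so the height of that site and its excess over STAT3 are descriptions and not tests. Within the region, 39 sites were found, of 129611 in the whole genome by the same rule. A site is a 200 bp window that stood out from the genome-wide mean of at least 1 library and was the highest window within 400 bp on either side. Height here is the larger of the values of the libraries, each scaled by its reads.

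TNF is a cytokine of activated T cells and macrophages that acts through TNF receptors and drives inflammation. Lymphotoxin alpha is secreted as a trimer that binds the same receptors, or is held at the cell surface by lymphotoxin beta in a mixed trimer that binds the lymphotoxin beta receptor and is needed for lymphoid organ development. STAT5 is activated downstream of IL-2 and STAT3 downstream of IL-6, and dimers of either bind DNA elements of the form TTCNNNGAA. Th17 cells are CD4 T cells named for the cytokine IL-17.

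The STAT5 library was made from wild-type C57BL/6J cells given IL-2 (200 IU/ml) for 30 minutes, and precipitated with antibodies to STAT5a and STAT5b together. The STAT3 library was made from wild-type C57BL/6J cells given IL-6 (40 ng/ml) for 30 minutes, and precipitated with an antibody to STAT3. Both came from naive CD4 T cells of spleen and lymph nodes, sorted and cultured in vitro for 3 days with TGF-beta at 2 ng/ml, IL-6 at 20 ng/ml and antibodies to CD3, CD28 and IL-4. The labels also list anti-IL-2, but dose it in international units as is usual for the cytokine, so the state of IL-2 during culture is not known. They do not say how many mice gave the cells.

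The STAT5 library held 17963766 nuclear reads and the STAT3 library 20784388, a mean of 1.52 and 1.76 reads per 200 bp. Values are given as reads and as RPM, which scales by the nuclear reads of each library, where 1 RPM is 17.96 STAT5 or 20.78 STAT3 reads. There was 1 library per antibody, with antibody and cytokine differing together, and no input or IgG library was analysed here. Intervals are exact 95% intervals, cover counting error only and compare these libraries, not the conditions. The files hold DNA reads only, so the cell type was not checked against its markers. Each position and strand holds at most 1 read, so 400 bp cannot hold more than 800 reads.

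The promoters are shown first, because the tall site lies near one of the gene starts. The promoter sequences below run from 250 bases before to 50 after the RefSeq start on GRCm38.p6, 5′ to 3′ along each gene, and were not placed on mm9. The Ltb promoter is chr17:35194257-35194556 on the plus strand, the Tnf promoter chr17:35201958-35202257 on the minus strand and the Lta promoter chr17:35205302-35205601 on the minus strand, all on GRCm38.p6. Capitals mark matches to the STAT form TTCNNNGAA and to a longer form with 4 bases between TTC and GAA, each of which reads the same on either strand.
Ltb promoter: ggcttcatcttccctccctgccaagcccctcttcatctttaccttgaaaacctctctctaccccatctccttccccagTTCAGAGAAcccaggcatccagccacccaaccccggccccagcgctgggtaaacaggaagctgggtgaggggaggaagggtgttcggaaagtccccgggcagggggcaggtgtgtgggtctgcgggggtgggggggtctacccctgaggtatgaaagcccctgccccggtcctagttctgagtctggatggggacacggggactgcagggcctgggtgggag
Tnf promoter: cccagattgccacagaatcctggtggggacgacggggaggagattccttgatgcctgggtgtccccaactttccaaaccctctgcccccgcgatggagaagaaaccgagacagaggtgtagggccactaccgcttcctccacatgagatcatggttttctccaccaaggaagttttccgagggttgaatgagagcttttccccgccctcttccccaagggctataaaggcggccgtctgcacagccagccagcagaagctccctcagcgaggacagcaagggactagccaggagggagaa
Lta promoter: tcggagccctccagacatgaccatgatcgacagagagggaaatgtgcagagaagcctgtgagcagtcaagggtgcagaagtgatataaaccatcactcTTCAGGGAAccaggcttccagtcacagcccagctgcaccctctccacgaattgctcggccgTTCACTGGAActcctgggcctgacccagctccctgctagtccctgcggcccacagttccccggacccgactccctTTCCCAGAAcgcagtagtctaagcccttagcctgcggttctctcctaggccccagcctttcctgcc

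The Lta promoter held 3 matches to the marked forms, 2 of them to TTCNNNGAA, the Ltb promoter 1 and the Tnf promoter 0. In Lta these were TTCAGGGAA at bases -152 to -144, TTCACTGGAA at -91 to -82 and TTCCCAGAA at -16 to -8, where -1 is the base just before the start. In Ltb the match was TTCAGAGAA at -172 to -164. Of 32851 RefSeq promoters of the same length, 8.30% held TTCNNNGAA, 6.95% held the longer form and 14.6% held at least 1 of these forms. At least 3 matches of the forms together were found in 33 promoters, 0.1% of all. At least 2 matches to TTCNNNGAA alone were found in 150 promoters, 0.457% of all. These cuts equal the counts in Lta itself, so the shares describe Lta and are not tests. The AP-1 form TGANTCA was in none of the 3 promoters, against 7.81% of all. The pattern GGG and CC with 5 bases between them, a loose form of the NF-kB element searched on both strands, matched 4 times in Ltb, 2 times in Tnf and 2 times in Lta, with overlapping matches counted separately, and was present in 50.8% of all promoters. TATAAA, searched on both strands, was in the Tnf promoter at -29 to -24 and in the Lta promoter at -167 to -162, against 13.6% of all promoters. These are letter matches in a window and not measured binding sites.

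The cluster was dense in reads of both antibodies. It held 8433 STAT5 reads (469 RPM) and 4344 STAT3 reads (209 RPM), which is 18.5 and 8.22 times the genome-wide mean. The STAT5 RPM was 2.25 times the STAT3 RPM over the whole region (interval 2.17 to 2.33), and 2.10 times (2.02 to 2.18) without 400 bp around the tall site. The 39 sites held 67.5% of the STAT5 reads (66.5 to 68.5%) and 59.8% of the STAT3 reads (58.3 to 61.2%). In the sites the ratio was 2.54 (2.42 to 2.66), and between them it was 1.81 (1.71 to 1.93). Windows that passed covered 50% of the length of the region with STAT5 and 37.8% with STAT3. In the whole genome 3.82% and 2.59% of the windows with a read passed, a share of windows and not of length, so the values are not directly comparable.

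Among 42528 bins of 60 kb that held a read anywhere in the genome, with bin edges set by this region, 9 had more STAT5 reads and 54 more STAT3 reads than the cluster. More sites were found in 16 bins, and more sites higher with STAT5 in 14. The median bin held 181 STAT5 and 281 STAT3 reads and 0 sites. The region was chosen with its reads known, so these ranks describe the choice.

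**Figure D1:**
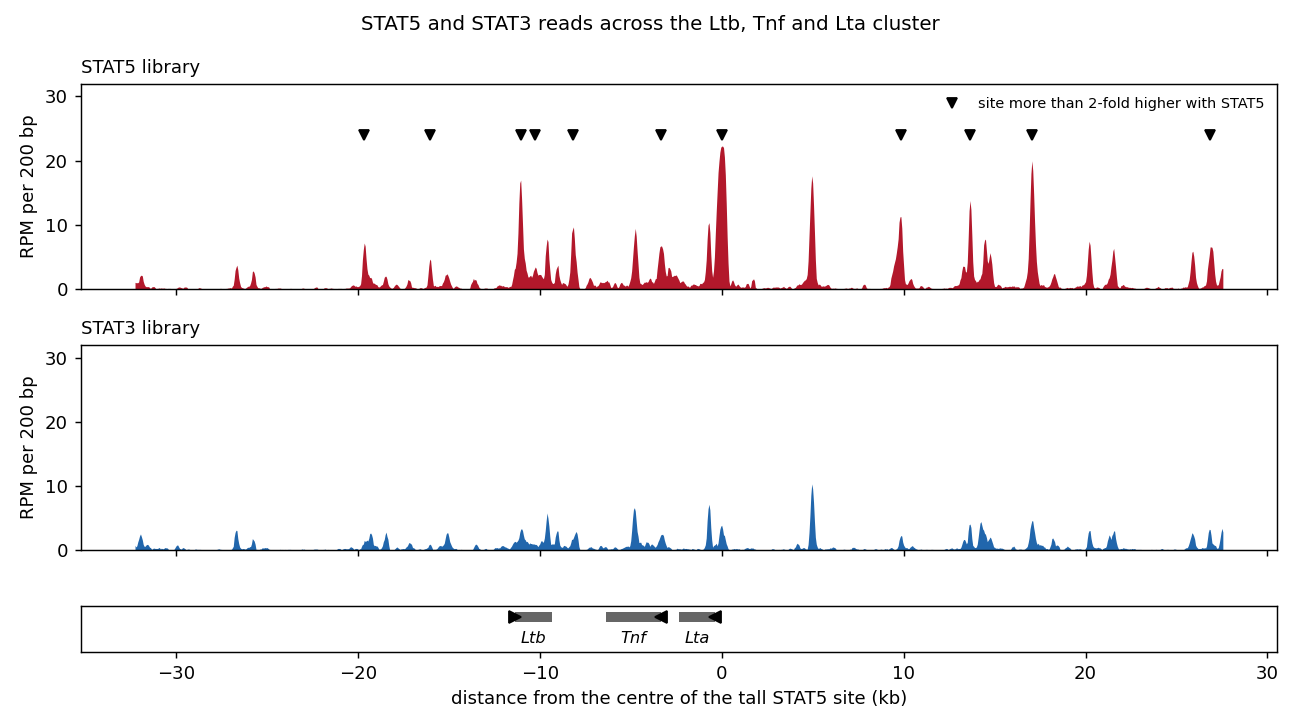
RPM in 200 bp windows moved by 50 bp (y axis) against the distance from the centre of the tall STAT5 site in kb (x axis), STAT5 library above STAT3 library on the same scale. Grey bars are the approximate gene intervals with an arrowhead at the start of each gene, and black triangles mark the 11 sites higher with STAT5; the tall site reaches 22.3 STAT5 RPM at 0 kb, where STAT3 reads 3.90 RPM, and the highest STAT3 peak lies 4.95 kb to its right.

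The genes lie at about 35.331 to 35.333 Mb for Ltb, 35.336 to 35.339 Mb for Tnf and 35.340 to 35.342 Mb for Lta on mm9, known here to the nearest kb only. In RefSeq on GRCm38.p6, Ltb is on the plus strand and Tnf and Lta are on the minus strand. Ltb therefore starts at the low end of its interval, and Tnf and Lta start at the high end of theirs. A site stood within 0.35 kb of each of these rounded start edges, and each was more than 2-fold higher with STAT5, meaning that the whole interval of the ratio lay above 2. At Lta a further peak, left out by the site rule, was as near to the rounded edge on its other side and was not called. Of all sites in the genome, 19.3% were called higher with STAT5 in this way and 2.03% higher with STAT3.

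The site nearest the Lta start edge was the tall one. In chr17:35342150-35342549 it had 779 STAT5 reads (43.4 RPM) and 118 STAT3 reads (5.68 RPM), a ratio of 7.64 (interval 6.29 to 9.35). It ranked 3 by STAT5 reads and 10023 by STAT3 reads among all 129611 sites. Its central 200 bp, chr17:35342250-35342449, held a STAT5 read at all 400 combinations of position and strand, as did those of 22 other sites in the genome, against 81 STAT3 reads. In 400 bp 97.4% of the 800 STAT5 combinations were taken, against 14.8% with STAT3, so the ratio is compressed. A correction for positions already taken raised it to 26.4, a value that rests on the 21 STAT5 combinations left free.

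The STAT5 profile of the tall site was broad and flat-topped. In steps of 100 bp from 400 bp left of its centre, STAT5 reads numbered 74, 143, 183, 200, 200, 196, 124 and 23, where 200 is the most that 100 bp can hold. STAT3 reads in the same steps numbered 13, 10, 14, 54, 27, 23, 11 and 3. The fullest step with STAT3 was the 100 bp left of the centre. In windows of 200 bp the width at 50% of the summit was 580 bp with STAT5, where the ceiling flattens the top, and 340 bp with STAT3. The plus and minus strands held 55 and 63 STAT3 reads in 400 bp, while with STAT5 both were near the 400 that a strand can hold. The 650 bp by which the region was chosen held 1089 STAT5 and 142 STAT3 reads, with a ratio of 8.87 (7.44 to 10.6).

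STAT5 sites of this height usually had more STAT3 reads. Of the 58 sites in the genome with 700 or more STAT5 reads, 38 were called higher with STAT5, and their STAT3 reads ran from 48 to 707 with a median of 298. Only 6 of the 58 had fewer STAT3 reads than the Lta site, and 5 had a larger ratio. Over sites of any height, 10.6% had a larger ratio.

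That further peak stood 700 bp from the tall site, inside the Lta interval, and each was centred 350 bp from the rounded start edge. It was hidden by the rule of 1 site per 400 bp, since the shoulder of the tall site was higher, and was picked out after its values were seen. In chr17:35341450-35341849 it had 237 STAT5 reads (13.2 RPM) and 170 STAT3 reads (8.18 RPM), a ratio of 1.61 (1.32 to 1.98). STAT3 reads were more numerous here than at the tall site itself, while STAT5 reads were fewer. The STAT5 to STAT3 ratio at the tall site was 4.73 times that at this neighbour (3.56 to 6.30), a figure in which the scaling of the libraries cancels. Between these peaks, 500 bp left of the tall site's centre, a 200 bp window held 33 STAT5 and 10 STAT3 reads.

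**Figure D2:**
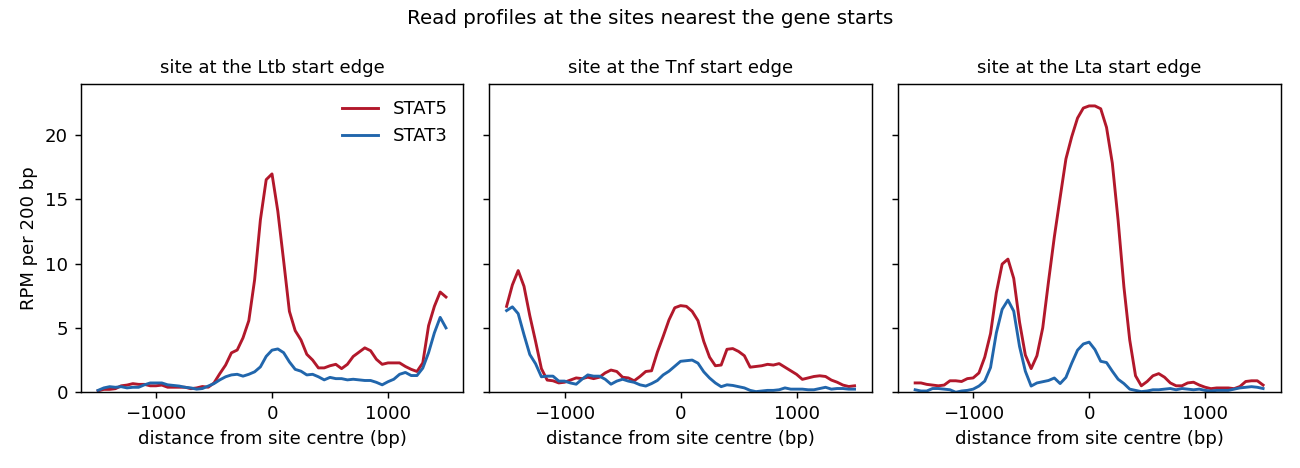
RPM in 200 bp windows (y axis) against the distance in bp from the centre of the site nearest each gene's start edge (x axis), with STAT5 in red and STAT3 in blue. STAT5 exceeds STAT3 at all 3 centres, and at the Lta start edge a second peak 700 bp to the left is closer to even, with 237 STAT5 and 170 STAT3 reads in 400 bp.

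At Ltb, which encodes the membrane-bound partner of lymphotoxin alpha, the libraries also differed from one site to the next. The site centred 0.3 kb right of the rounded start edge, chr17:35331100-35331499, had 425 STAT5 reads (23.7 RPM) and 105 STAT3 reads (5.05 RPM), a ratio of 4.68 (3.77 to 5.86). The start is known to the nearest kb only, so this site may lie on either side of it. The next, chr17:35331900-35332299, had 96 STAT5 reads (5.34 RPM) and 37 STAT3 reads (1.78 RPM), a ratio of 3.00 (2.03 to 4.51). The third, chr17:35332550-35332949 near the far end of the gene, had 177 STAT5 reads (9.85 RPM) and 143 STAT3 reads (6.88 RPM), a ratio of 1.43 (1.14 to 1.80), and was not called. STAT5 was thus highest at the start edge of Ltb and STAT3 at the other end. The ratio at the start edge was 3.27 times that at the far end (2.38 to 4.50), 1450 bp away. The far-end site was compared because it had the most STAT3 reads in the Ltb interval, a choice that favours a low ratio. STAT5 windows passed without a break over 3000 bp here, from 35330850 to 35333849.

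At Tnf the ratio was also larger at the start edge than at the tallest site within the gene interval. STAT5 reads were about as many at either place. At its start edge, chr17:35338800-35339199 had 214 STAT5 reads (11.9 RPM) and 86 STAT3 reads (4.14 RPM), a ratio of 2.88 (2.23 to 3.74). This call was lost when reads were counted in 200 bp, where the ratio was 2.80 and its interval began at 2.00. Within the gene interval, chr17:35337400-35337799 had 227 STAT5 reads (12.6 RPM) and 193 STAT3 reads (9.29 RPM), a ratio of 1.36 (1.12 to 1.66). The ratio at the start edge was 2.11 times that of this inner site (1.53 to 2.94). The inner site was compared because it had the most STAT3 reads in the Tnf interval, a choice that favours a low ratio. The other sites in the Tnf interval were small, with 41 and 25 STAT5 reads and 16 and 12 STAT3 reads, and were not called. Their ratios, 2.96 (1.63 to 5.66) and 2.41 (1.17 to 5.27), were close to that at the start edge, with wide intervals.

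The start-edge sites also differed among themselves. The ratio at the Lta site was 1.63 times that at the Ltb site (1.21 to 2.20) and 2.65 times that at the Tnf site (1.91 to 3.68), before any correction for the ceiling. The ratio at the Ltb site was 1.63 times that at the Tnf site (1.15 to 2.29). Per kb of the approximate gene intervals, Ltb had 24.1 STAT5 and 9.26 STAT3 RPM, Tnf 9.91 and 6.09, and Lta 10.9 and 5.17. The tall site lies mostly outside the Lta interval and adds little to that value.

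Between Ltb and Tnf were 3 sites. The tallest, chr17:35334000-35334399, had 254 STAT5 reads (14.1 RPM) and 92 STAT3 reads (4.43 RPM), a ratio of 3.19 (2.51 to 4.10), and was higher with STAT5. The others had 83 and 46 STAT5 reads and 72 and 17 STAT3 reads, and were not called. Between Tnf and Lta no site was found by the rule. With local maxima taken within 200 bp, 2 peaks appeared there on the flank of the Tnf start-edge site, and both were higher with STAT5. The first, chr17:35339250-35339649, had 89 STAT5 and 16 STAT3 reads and a ratio of 6.44 (3.75 to 11.7). The second, chr17:35339650-35340049, had 69 STAT5 and 8 STAT3 reads and a ratio of 9.98 (4.79 to 24).

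To the right of Lta, towards Nfkbil1 in the RefSeq gene order, were the tall site and 16 further sites, and several of these were tall. The site chr17:35347100-35347499, 4950 bp from the tall one, had 449 STAT5 reads (25 RPM) and 267 STAT3 reads (12.8 RPM), the most STAT3 reads of any of the 39 sites. Its ratio was 1.95 (1.67 to 2.27), so it was not called. It was called higher with STAT5 after the correction for occupied positions, at 2.35 (2.01 to 2.74), with scaling by bins without a passing window, at 2.72 (2.33 to 3.17), and at a limit of 1.5-fold. The ratio at the tall site was 3.92 times as large (3.05 to 5.06).

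Among the farther sites on that side, STAT5 was higher at 4. The site chr17:35352000-35352399 had 293 STAT5 reads (16.3 RPM) and 59 STAT3 reads (2.84 RPM), a ratio of 5.75 (4.33 to 7.74), the largest of the 39 after the tall site. The site chr17:35355800-35356199 had 295 STAT5 reads (16.4 RPM) and 100 STAT3 reads (4.81 RPM), a ratio of 3.41 (2.71 to 4.33). Its neighbour chr17:35356650-35357049 had 203 STAT5 reads (11.3 RPM) and 93 STAT3 reads (4.47 RPM), a ratio of 2.53 (1.97 to 3.26), just short of a call. It was called in 200 bp, at 3.12 (2.25 to 4.37), after the correction, at 2.74 (2.13 to 3.54), with the other scaling, at 3.52 (2.74 to 4.56), and at a limit of 1.5-fold. Where these sites lie relative to the starts of the genes right of Lta is not known here.

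The STAT5 site next in height to the tall one lay 17.05 kb from it. The window chr17:35359200-35359599 had 513 STAT5 reads (28.6 RPM) and 143 STAT3 reads (6.88 RPM), a ratio of 4.15 (3.44 to 5.03). The last called site, chr17:35369000-35369399, had 192 STAT5 reads (10.7 RPM) and 82 STAT3 reads (3.95 RPM), a ratio of 2.71 (2.08 to 3.55). Its call was lost with 200 bp counts, at 2.04 (1.5 to 2.79), and with a read shift of 75 bp, at 2.59 (1.99 to 3.39).

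To the left of Ltb, towards Lst1 in the RefSeq gene order, sites were lower and more even. The 12 sites there had 7 to 168 STAT5 reads and 11 to 81 STAT3 reads, with a median ratio of 1.15, against 2.43 at the 17 sites right of Lta. STAT5 was higher at 2 of them. The site chr17:35322500-35322899 had 168 STAT5 reads (9.35 RPM) and 49 STAT3 reads (2.36 RPM), a ratio of 3.97 (2.87 to 5.57). The site chr17:35326100-35326499 had 90 STAT5 reads (5.01 RPM) and 22 STAT3 reads (1.06 RPM), a ratio of 4.73 (2.94 to 7.93).

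Counted over the whole cluster, 11 of 39 sites (28.2%) were higher with STAT5, against 19.3% of all sites in the genome, and 0 were higher with STAT3, against 2.03%. With another scaling, by 10 kb bins without a passing window, 20 of the 39 were higher with STAT5, against 26.4% of all sites, and with a limit of 1.5-fold in place of 2-fold 17 were, against 25.4%. Among sites with at least 100 reads of both libraries together, a restriction chosen after the data were seen, 11 of 26 cluster sites (42.3%) were higher with STAT5, against 28.8% of all such sites, and 0 were higher with STAT3, against 3.18%. The median ratio was 2.40 at the 39 sites and 1.16 at all sites of the genome. The counts that follow have no genome share beside them, and the median over all sites was itself above 1. The ratio was above 1 at 34 of the 39, with the whole interval above 1 at 26, and the whole interval was below 1 at 1 site. That site, chr17:35312200-35312599, had 7 STAT5 and 20 STAT3 reads, a ratio of 0.405 (0.145 to 0.997). The site rule left out places beside higher windows of either library. A STAT3 peak near a taller STAT5 peak was thus not counted as a site, nor was the reverse. With local maxima taken within 200 bp, 16 further peaks appeared, of which 2 were higher with STAT5. Another, chr17:35310600-35310999, had 11 STAT5 and 27 STAT3 reads, a ratio of 0.471 (0.211 to 0.982). A 200 bp window between chr17:35355800-35356199 and chr17:35356650-35357049 held 38 STAT5 and 93 STAT3 reads. This window was picked out after its values were seen, and was no peak under either rule.

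**Figure D3:**
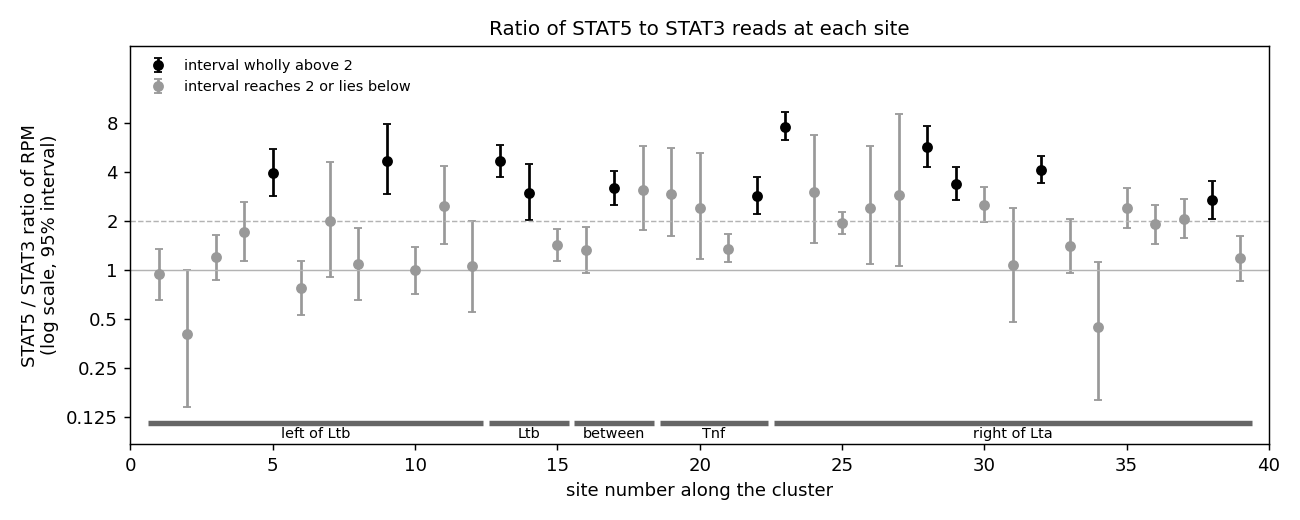
Ratio of STAT5 to STAT3 RPM (y axis, log scale) at each of the 39 sites in order along the cluster (x axis), with exact 95% intervals that cover counting error only. Black points are the 11 sites whose interval lies wholly above 2 (dashed line); site 23 is the tall site at 7.64, sites 13 and 22 are those at the Ltb and Tnf start edges at 4.68 and 2.88, and "between" is between Ltb and Tnf.

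Judged against the genome-wide mean, most sites were seen with both antibodies. Both libraries passed at 27 of the 39 sites, against 51.5% of all sites in the genome. STAT5 passed at 35, against 80.9%, and STAT3 at 31, against 70.7%. The 8 sites of STAT5 alone had 15 to 46 STAT5 reads and the 4 of STAT3 alone 15 to 23 STAT3 reads, so sites of a single library were among the weaker ones. The tall site passed with STAT3 as well, at 81 reads in 200 bp. With STAT3 the tall site did not pass when windows also had to stand out from the local means over 5 kb and 10 kb. Under that rule the cluster had 19 sites, of which 16 passed with STAT5 and 11 with STAT3. That most sites pass with both libraries therefore depends on the genome-wide mean. Across the 39 sites, sites with more STAT5 reads tended to have more STAT3 reads, with Spearman's rho of 0.879 and Pearson's r of 0.840 on the log2(reads + 1) scale. Over all 129611 sites of the genome these were 0.468 and 0.45. The cluster sites had medians of 83 STAT5 and 70 STAT3 reads, against 28 and 26 over the genome. Correlations at like numbers of reads are not given, so the difference cannot be assigned to the cluster. The sites share the libraries and their neighbourhood and are not replicates. Of the 10 sites with most STAT5 reads, 8 were among the 10 with most STAT3 reads.

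**Figure D4:**
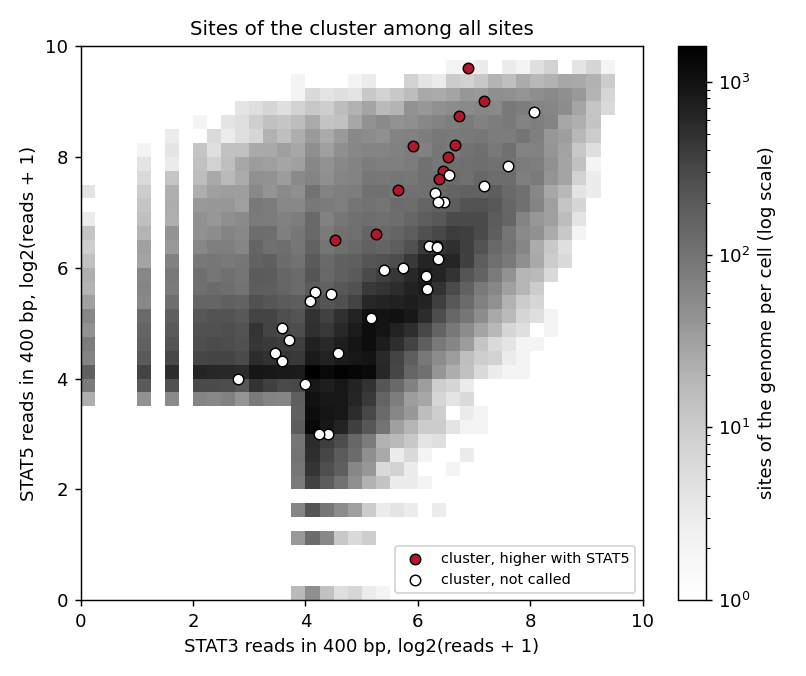
STAT5 reads (y axis) against STAT3 reads (x axis) in 400 bp around each site, both as log2(reads + 1), for all 129611 sites of the genome (grey, darker where more sites fall, log colour scale) and for the 39 sites of the cluster (circles, red where higher with STAT5). The cluster sites run along a common diagonal, with the tall site at the top at 779 STAT5 and 118 STAT3 reads.

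The read centres of the libraries lay close together at most sites. The median positions of STAT5 and STAT3 fragments in 400 bp differed by a median of 23 bp over the 39 sites and by at most 91 bp, and by 25 bp or less at 20 sites. The exact intervals of the medians did not overlap at 4 sites. These were the Ltb start-edge site, where the STAT5 median lay 47 bp left of the STAT3 median, the site at chr17:35334000-35334399 (91 bp left), the inner Tnf site (44 bp right) and the last called site (79.5 bp right). At the tall site the STAT3 median lay 27 bp left of the centre (interval -41 to 8), and the STAT5 median is not compared, since the ceiling holds it near the centre of the window. The counts in 400 bp bound these distances, and neighbouring peaks within the window can shift a median.

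At the edge of the threshold, the lowest of the 39 sites reached 0.674 RPM in the higher library, with 9 STAT5 and 14 STAT3 reads in 200 bp at chr17:35358300-35358499. Of the local maxima within 400 bp that failed the threshold, the highest, at chr17:35353200-35353399, had 10 STAT5 and 4 STAT3 reads, or 0.557 RPM. The longest stretch with no read start in either library ran for 478 bp from 35318682 to 35319159, left of Ltb, and why it held no read was not tested.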

How the data were processed

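The deposited files list aligned reads on mm9, per the labels, with 1 line per read holding chromosome, start, end, match descriptor, score and strand. That score, as deposited, was 0 throughout and entered no result. Every read was 25 nt long. The sources used here do not name the aligner or the step that left 1 read per position and strand.

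Read 5′ ends were moved 50 bp in the 3′ direction to give centres, counted in 200 bp windows moved by 50 bp. A window passed with at least 5 reads, at least 4-fold over the genome-wide mean (taken over the 2360778000 bp of 1 kb bins with a read), a 1-sided Poisson p adjusted by the Benjamini-Hochberg method at or below 1e-05 and at most 80% of reads on 1 strand. That needed at least 12 STAT5 or 13 STAT3 reads. Ratios compare RPM in 400 bp, STAT5 over STAT3, with exact conditional (Clopper-Pearson) intervals; a count of 0 would allow up to 3 reads. Medians of positions have exact order-statistic intervals. No p-value was computed between libraries. All sites called, and the 10 with the highest RPM in 400 bp, are given in full.

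Members, sites and motif lists were chosen with earlier results of these data known. Gene positions on mm9 are approximate. A list of TNF pathway genes was not used, since no annotation of mm9 was used here. Scripts used scipy 1.17.1, numpy 2.4.6 and pandas 2.3.3 in Python 3.11.15, with figures from matplotlib 3.10.9, and the site finder was tested on simulated data. Promoters are from RefSeq.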

Additional observations from a re-analysis of the deposited data

How the results depend on the processing

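No paired analysis was possible because there is 1 library per antibody, and no replicate could be left out. Of 27 recalculated main values, 24 kept their call or stayed within 1.5 times. When windows also had to stand out from the local means over 5 kb and 10 kb, the cluster had 19 sites in place of 39, since the local means include the neighbouring sites. Scaling by 10 kb bins without a passing window raised every ratio by 1.40 times and the sites higher with STAT5 to 20, and a limit of 1.5-fold in place of 2-fold raised them to 17, as the rule itself fixes. Local maxima within 200 bp gave 55 sites, of which 13 were higher with STAT5. No alternative that was run called a cluster site higher with STAT3, though all took sites by the larger RPM of the libraries. The tall site was called higher with STAT5 under every alternative run for it, with ratios from 5.71 in 200 bp, where the ceiling is reached, to 26.4 after correction for occupied positions. Without replicates or an input library, counting error is the only error shown.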
